A study of Mus musculus with 4 samples.

Results

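The 45 genes described here encode transcription factors of 4 families: 18 Sox genes, 10 T-box genes, 6 Gata genes and 11 proneural basic helix-loop-helix (bHLH) genes of the Neurog, Neurod, Atoh and Olig groups. They were taken by gene name, not by any measured value, from 21631 protein-coding genes on the autosomes and X in the RefSeq annotation of the GRCm38.p6 assembly (mm10). Their DNA methylation was read from whole-genome bisulfite sequencing of mouse embryonic stem cells, with 2 Ogt iKO libraries and 2 control libraries. Every library came from Ogt fl/fl cells, in which the Ogt gene (O-GlcNAc transferase, the enzyme that adds N-acetylglucosamine to nuclear and cytosolic proteins) is flanked by loxP sites. The iKO cells were cultured with 4-hydroxytamoxifen (4-OHT) for 6 days and sorted for YFP, and the control cells were cultured for 6 days without 4-OHT, so drug, reporter sort and deletion cannot be told apart. Cells of both groups had grown on mitomycin-treated mouse embryonic fibroblasts, which were removed by cell sorting, and separate clones or animals are not named, so the spread between replicates may be technical.

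Sox factors carry an HMG box that bends DNA, T-box factors bind DNA through the T domain, Gata factors through zinc fingers, and proneural bHLH factors as dimers with E proteins. Many of them direct lineage choice in the embryo and are silent or low in embryonic stem cells. Genes of this kind typically have CpG-rich promoters that stay free of DNA methylation and are held by Polycomb complexes, while DNA farther away is more methylated. TET enzymes oxidise 5-methylcytosine to 5-hydroxymethylcytosine. Bisulfite sequencing reads both as methylated, so a level below is their sum.

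Methylated and total reads were deposited per CpG, with both strands merged. Read counts summed over CpGs were 64273609 to 79929994 in a library, or 3.35 to 4.04 reads per listed CpG. A read over several CpGs counts once at each. Of 20677079 listed CpGs, 16341360 (79.0%) were read in every library. Only those CpGs were used, and a level is the methylated share of the pooled reads of a feature, in percent. Mean levels over these CpGs were 65.1% and 62.9% in iKO and 70.1% and 73.8% in control, so every comparison below stands against a genome-wide shift. With 2 libraries against 2, the two-sided exact permutation test cannot give a p below 0.33, and "apart" below means that both iKO libraries lay on the same side of both controls. The Ogt gene itself had 2.51 and 2.15 reads per CpG after 4-OHT, against 2.18 and 1.90 without it. Its longest run of CpGs with no iKO read was 7 CpGs, where the controls had 5 and 10 reads, and since the labels do not place the deleted part, depth here does not check the knockout. The promoter of Pou5f1, a defining stem cell gene, was methylated at 0% and 0% in iKO and 4.30% and 1.16% in control, and that of Col3a1, a fibroblast collagen gene, at 56.3%, 57.7%, 75.0% and 95.7% on 7 CpGs, the largest difference of the fibroblast markers. Those of Col1a2 (10.4% and 8.20% in iKO, 8.86% and 8.79% in control) and Twist2 (0.56% and 7.69%, 1.32% and 4.05%) differed the other way, by 0.48 and 1.45 points. Of the stem cell markers, the Esrrb promoter was at 46.7% and 66.7% in iKO and 62.1% and 70.9% in control. That of Tdgf1 was higher in iKO by 0.71 points. Differences were negative at 7 of the 8 stem cell and 4 of the 6 fibroblast marker promoters. Over the 8 stem cell markers promoter levels averaged 7.74% and 10.7% in iKO and 13.9% and 18.2% in control, and over the 6 fibroblast markers 30.4% and 29.1% against 35.4% and 42.0%; the part of other cells in the results was not tested.

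The promoters that the results turn on are shown with each CpG in capitals, from RefSeq GRCm38.p6, as 250 bases before to 50 after the start, 5′ to 3′ on the strand of the gene. They were chosen for contrast: Sox12 has the most CpGs among the 300-base sequences of the matched members, Tbx21 and Sox15 belong to the genes with the largest loss, Tbx6 and Tbx19 hold equally many CpGs at very different methylation, Sox5 has a methylated CpG-poor sequence at a listed start that lies 835 kb inside the annotated gene, and Gata1 had the largest promoter difference. RefSeq promoters were matched for 33 of the 45 members. The others (Sox3, Sox7, Sox9, Sox10, Sox17, Sox18, Tbx2, Tbx5, Tbx15, Gata4, Gata6 and Olig1) are named only.
Sox12: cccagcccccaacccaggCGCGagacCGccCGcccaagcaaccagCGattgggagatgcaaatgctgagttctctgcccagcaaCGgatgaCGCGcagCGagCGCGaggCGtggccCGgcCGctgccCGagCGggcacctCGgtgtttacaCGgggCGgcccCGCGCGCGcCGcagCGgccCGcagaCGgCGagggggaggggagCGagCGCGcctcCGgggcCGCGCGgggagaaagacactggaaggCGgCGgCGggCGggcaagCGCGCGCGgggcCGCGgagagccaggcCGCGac
Tbx21: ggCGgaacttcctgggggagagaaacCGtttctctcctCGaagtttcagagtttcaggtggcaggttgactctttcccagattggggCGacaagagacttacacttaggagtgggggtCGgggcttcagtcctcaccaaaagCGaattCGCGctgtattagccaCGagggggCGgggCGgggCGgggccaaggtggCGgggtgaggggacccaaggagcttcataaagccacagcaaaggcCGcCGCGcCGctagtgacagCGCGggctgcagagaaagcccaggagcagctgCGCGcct
Sox15: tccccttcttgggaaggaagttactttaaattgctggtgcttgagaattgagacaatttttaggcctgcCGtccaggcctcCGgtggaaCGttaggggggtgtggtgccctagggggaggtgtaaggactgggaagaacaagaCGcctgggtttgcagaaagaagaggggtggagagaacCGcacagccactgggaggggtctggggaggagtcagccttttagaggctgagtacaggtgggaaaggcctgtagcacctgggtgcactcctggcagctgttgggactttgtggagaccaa
Tbx6: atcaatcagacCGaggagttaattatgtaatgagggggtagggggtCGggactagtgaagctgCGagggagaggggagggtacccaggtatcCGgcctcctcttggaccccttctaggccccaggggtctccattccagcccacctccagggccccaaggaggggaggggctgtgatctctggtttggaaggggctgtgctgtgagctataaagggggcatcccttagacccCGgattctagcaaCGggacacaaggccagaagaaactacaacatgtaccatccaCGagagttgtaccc
Tbx19: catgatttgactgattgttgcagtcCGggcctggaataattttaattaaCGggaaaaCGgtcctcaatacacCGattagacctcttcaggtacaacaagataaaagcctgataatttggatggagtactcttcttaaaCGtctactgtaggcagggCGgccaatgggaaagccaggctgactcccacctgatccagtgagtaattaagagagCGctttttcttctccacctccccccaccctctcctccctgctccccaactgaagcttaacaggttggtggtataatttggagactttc
Sox5: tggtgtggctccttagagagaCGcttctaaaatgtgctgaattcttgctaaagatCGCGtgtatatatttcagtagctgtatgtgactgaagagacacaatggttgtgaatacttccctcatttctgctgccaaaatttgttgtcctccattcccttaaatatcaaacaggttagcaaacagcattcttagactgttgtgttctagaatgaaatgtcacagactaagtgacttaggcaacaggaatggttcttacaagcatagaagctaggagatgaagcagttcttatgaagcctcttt
Gata1: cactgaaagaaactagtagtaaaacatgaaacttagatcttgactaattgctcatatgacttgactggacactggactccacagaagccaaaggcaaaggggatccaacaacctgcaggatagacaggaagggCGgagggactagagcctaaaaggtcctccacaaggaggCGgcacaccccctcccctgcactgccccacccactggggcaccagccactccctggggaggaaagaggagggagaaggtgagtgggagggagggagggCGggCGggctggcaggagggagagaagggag

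Starts with equally many CpGs differed in methylation. The motif searched was CG, which reads the same on both strands. The promoter sequence of Sox12 at chr2:152397997-152398296 (minus strand) holds 47 CG, a number that 1.44% of the 32851 RefSeq promoter sequences of this length reach or exceed, and its 24 CpGs read in every library were at 0% in all 4 (3 reads of the 24 in the shallowest library, the limit that a count of 0 allows, would be 12.5%). That of Tbx21 at chr11:97115282-97115581 (minus strand) holds 21 CG and was at 1.37% and 1.33% in iKO and 0% in both controls. Sox15 has only 5 CG at chr11:69654787-69655086 (plus strand), where 62.0% of promoter sequences hold as many or more, yet it was at 0% in 3 libraries and at 14.3% in control replicate 2. Tbx6 at chr7:126781233-126781532 (plus strand) and Tbx19 at chr1:165160724-165161023 (minus strand) hold 7 CG each. Tbx6 was methylated at 17.6% and 15.0% in iKO and 13.3% and 4.00% in control, and Tbx19 at 64.6%, 81.8%, 77.3% and 84.2%. Sox5 with 3 CG at chr6:143947057-143947356 (minus strand) was at 87.5% and 81.8% in iKO and 84.6% and 100% in control. None of the 4 CG of Gata1 at chrX:7967861-7968160 (minus strand) was read in every library, so the Gata1 promoter values below come from CpGs beside this sequence. The 6 windows with reads rest on 6 to 75 reads in a library, and the median promoter sequence held 20 CG among the matched members against 7 among all promoters.

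Across the gene and 5 kb on either side, called the span, the 45 genes were less methylated in the iKO cells. Their mean span level was 39.0% and 37.5% in iKO and 41.7% and 42.6% in control, a difference of -3.89 percentage points (pooled SD 0.872, n = 2 per group, exact permutation p = 0.33, the smallest possible). The other 21369 genes with enough CpGs started from 63.2% and 66.3% in the controls and differed by -7.64 points (pooled SD 1.84). Relative to the control level the loss was 9.23% for the members and 11.8% for the other genes. The distance between members and other genes was smaller by 3.75 points in iKO (pooled SD 1.14, exact permutation p = 0.33). Both iKO libraries lay below both controls at 28 of the 45 spans and above them at 4, while 85.4% of all 21414 spans were lower and 0.453% higher. The 4 spans above were Sox11, Sox14, Tbx1 and Tbx2. The median difference over the members was -4.05 points, against -7.74 over the other genes.

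**Figure D1:**
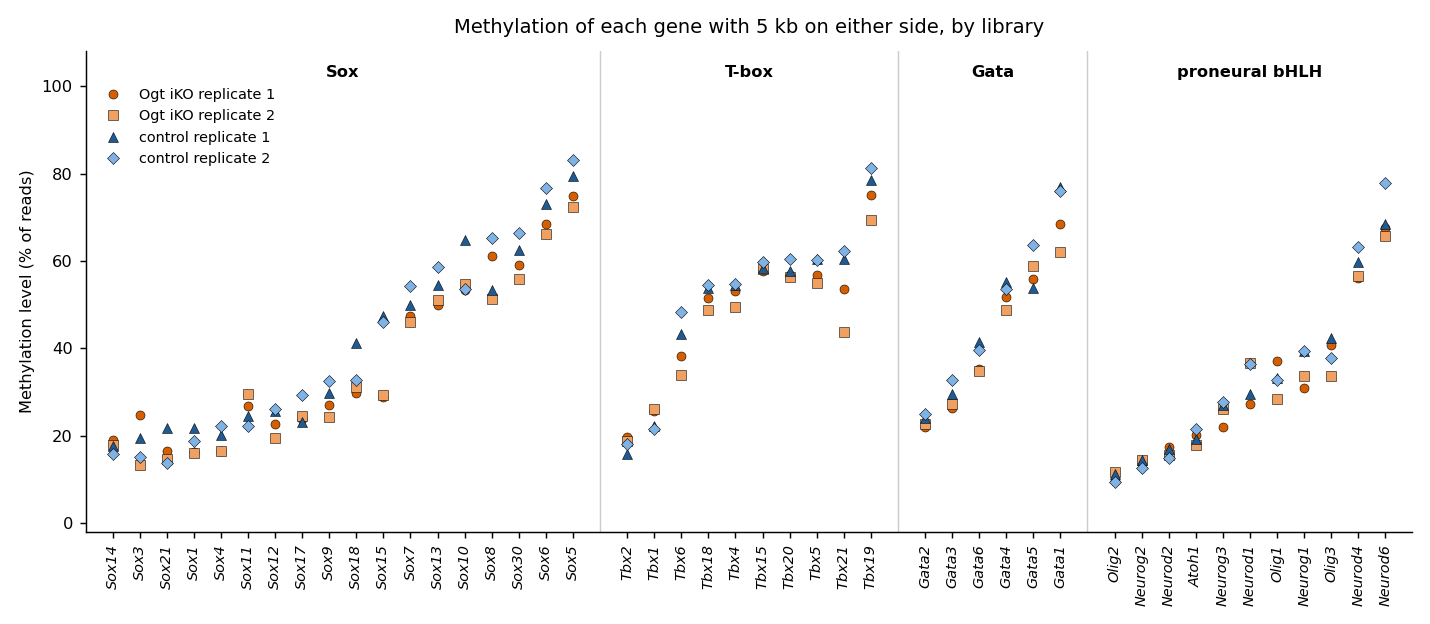
Methylation level of each of the 45 spans (gene with 5 kb on either side, in percent of reads) in each library, by family and in order of the control mean. Circles and squares are the iKO libraries, triangles and diamonds the controls, 1 point per library. Sox15 stands out with iKO points at 28.7% and 29.3% under control points at 47.4% and 45.9%, while weakly methylated spans at the left of each family overlap or lie close together.

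The difference was larger at more methylated spans. Classes were set by the mean level over all 4 libraries, with limits chosen after the values had been seen. The 10 members under 20% differed by -0.51 points (pooled SD 1.17, exact permutation p = 0.667), the 15 members from 20% to 40% by -3.62 points (SD 0.0501), the 14 from 40% to 60% by -4.87 points (SD 1.59) and the 6 at 60% or more by -7.95 points (SD 2.63). Other genes of the same classes differed by -1.49, -5.70, -7.78 and -7.95 points (225, 1822, 6347 and 12975 genes). In the highest class, members and other genes showed the same mean difference, and in the other classes that of the members was smaller, which was not tested class by class. Spearman's rho between level and difference was -0.63 across the 45 members and -0.0855 across the other genes, as a description across genes that share libraries and CpG content. Members held 13.2 CpGs read in every library per kb of span in the median, and other genes 9.20.

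Every span was tested with a quasi-binomial model, and called where the Benjamini-Hochberg adjusted p was under 0.05 and the difference at least 10 points. Of all 21414 spans, 14.4% were called lower and none higher, and among the members 2 of 45 were called, Sox15 and Tbx21, both lower. Without the size limit 45.1% of all spans passed the adjusted p, all lower, and 7 members did: besides these 2, Sox5, Sox6, Sox13, Tbx5 and Tbx19. That member count was 3 without iKO replicate 2, 5 without iKO replicate 1 or control replicate 2, 10 without control replicate 1 and 4 with the replicate number as a block. An unadjusted p under 0.05 was reached by 56.5% of all spans and by 13 members. Every one of the 4 members with higher iKO levels missed the test, at adjusted p values from 0.196 to 0.533.

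Sox15, the SoxG gene, which mouse embryonic stem cells express, had the largest loss of the 45. Its span was methylated at 28.7% and 29.3% in iKO and 47.4% and 45.9% in control, a difference of -17.6 points (pooled SD 0.812, quasi-binomial adjusted p = 0.00354, 194 CpGs). Both iKO values lay far below both controls, and leaving out any library kept the difference between -18.4 and -16.9 points and the call (adjusted p from 0.000214 to 0.0183 over 15 alternatives). The bin with the most CpGs, 40 of them just inside the gene, stayed near 0% in every library (2.31%, 0%, 0.93% and 0.71%). All 11 other 1 kb bins were lower in both iKO libraries, where 38.1% of all 2001972 bins with at least 3 CpGs were lower in this way and 4.70% higher. In the called bin farthest upstream the levels were 47.2% and 52.3% in iKO against 75.4% and 78.7% in control. In the bin just before the start they were 8.20% and 3.85% against 24.3% and 27.5%. In the first bin beyond the gene they were 10% and 4.00% against 31.1% and 39.6%. The run of neighbouring bins under 20% around the Sox15 start was 4 kb long in both iKO libraries and 2 kb and 1 kb in the controls. The span also holds parts of Fxr2 and Mpdu1, so the loss is that of a gene-dense stretch and not of Sox15 alone.

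Tbx21 (T-bet), the T-box factor of type 1 helper T cells, had the next largest loss. Its span was at 53.7% and 43.8% in iKO and 60.3% and 62.2% in control, or -12.6 points (pooled SD 5.04, quasi-binomial adjusted p = 0.0164, 344 CpGs). The groups did not overlap, but the iKO libraries were farther apart than the controls: without iKO replicate 2 the difference was -7.63 points and the call was lost (adjusted p = 0.233, the highest of 15 alternatives, the lowest being 0.000995). It was also lost with at least 3 reads per CpG (-10.5 points, adjusted p = 0.0615). The Tbx21 bins at the start were low, at 8.99%, 4.93%, 6.94% and 4.72% in the bin just inside the gene. A bin in the body (chr11:97112001-97113000) fell from 91.9% and 100% in control to 68.6% and 54.3% in iKO. Of the 28 Tbx21 bins with at least 3 CpGs, 11 were lower apart, 1 was higher and 16 overlapped, shares close to the background of 38.1% lower and 4.70% higher.

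**Figure D2:**
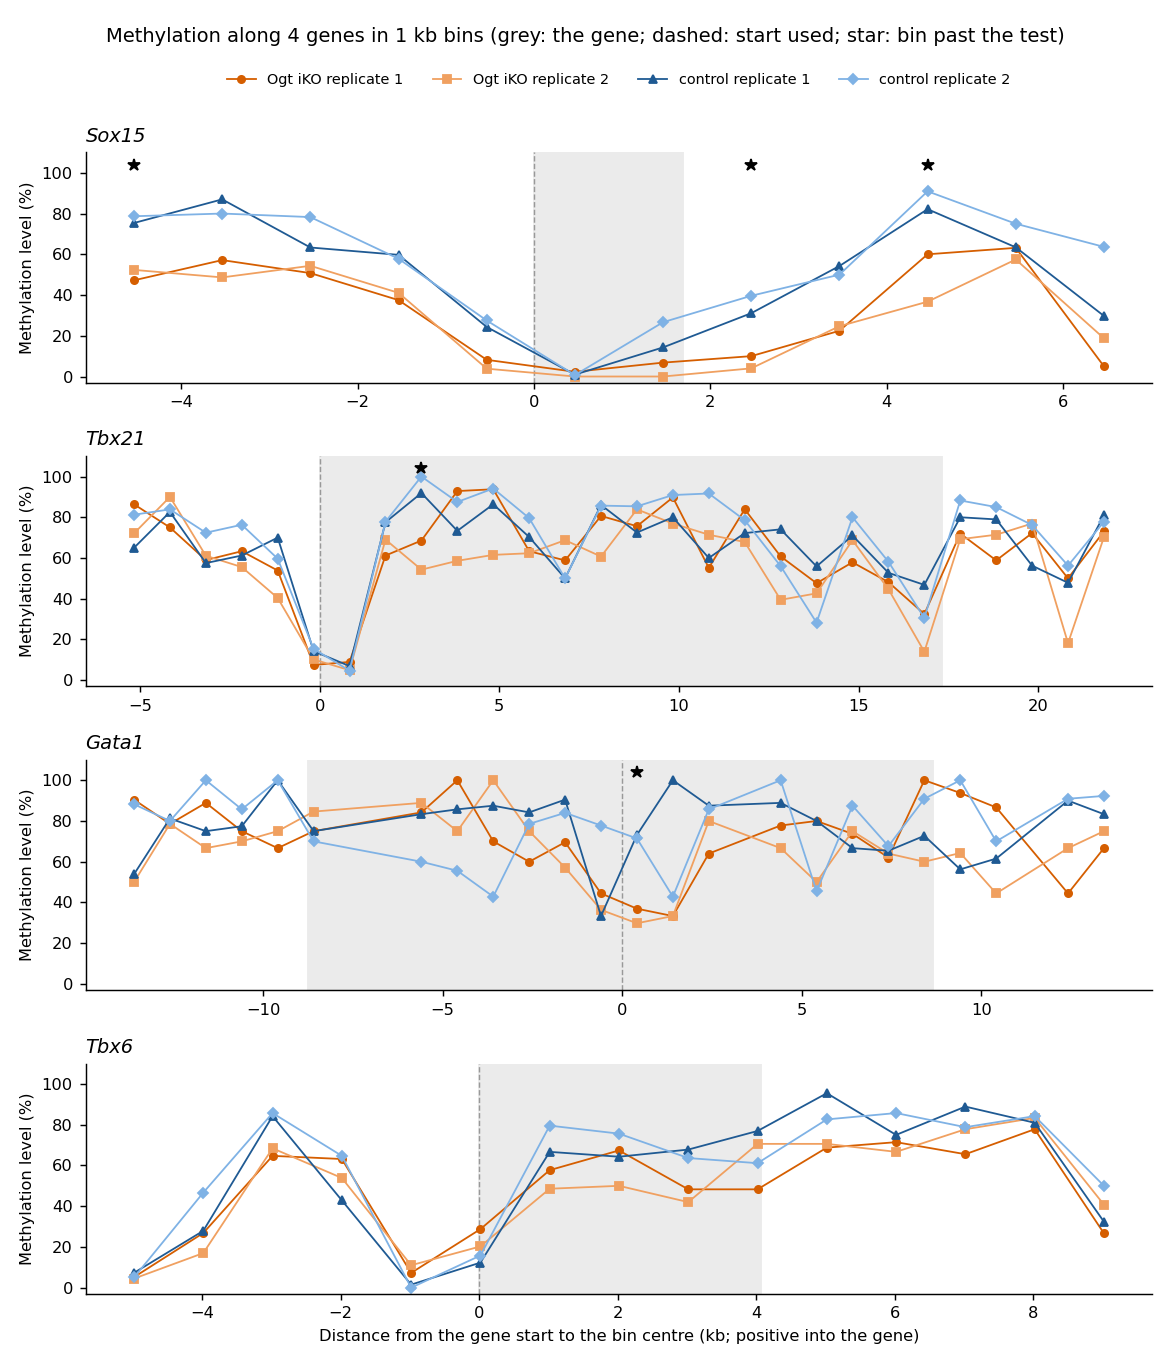
Methylation level of 1 kb bins (percent, bins with at least 3 CpGs read in every library) against the distance of the bin centre from the gene start in kb, along Sox15, Tbx21, Gata1 and Tbx6. Each line is 1 library, grey marks the annotated gene, the dashed line the start used, and stars mark bins called by the quasi-binomial test. Around Sox15 the orange iKO lines run below the blue control lines on both sides of a nearly unmethylated bin, and at Tbx6 both iKO points exceed both controls only in the 2 bins at the start.

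Among the 18 Sox genes the mean span level was 37.0% and 35.2% in iKO and 40.6% and 40.7% in control (-4.52 points, pooled SD 0.878, exact permutation p = 0.33), with 11 of 18 spans lower apart and 2 higher, where 85.4% of all spans were lower and 0.453% higher. The SoxD genes, which act with Sox9 in cartilage and in neural and muscle progenitors, were all lower, by amounts near the genome-wide shift. The mean over the other genes was -7.64 points, and 45.1% of all spans passed the adjusted p. Sox5 was at 74.8% and 72.3% in iKO and 79.4% and 83.1% in control over 8545 CpGs (-7.72 points, adjusted p = 0.00138), Sox6 at 68.4%, 66.1%, 72.9% and 76.8% (-7.60 points, adjusted p = 0.00206), and Sox13 at 49.9%, 51.1%, 54.5% and 58.7% (-6.14 points, adjusted p = 0.0434). Sox5 and Sox6 passed the adjusted p with any library left out, and Sox5 missed it with edgeR (adjusted p = 0.0548). Sox13 passed it only without control replicate 1 among these, was at -4.05 points without control replicate 2 and reached an adjusted p of up to 0.244. The SoxC gene Sox11, a factor of neuronal differentiation, went the other way, with 26.7% and 29.6% in iKO and 24.6% and 22.2% in control. Its difference of 4.76 points was apart but missed the test (adjusted p = 0.196) and was 2.29 points over all listed CpGs, and its promoter was at 0.57% and 0.85% in iKO and 0% in both controls. The other SoxC genes Sox4 and Sox12 were lower by 4.59 and 4.84 points, again apart and not past the test. Among the SoxB genes of neural progenitors Sox1 differed by -4.05 points and Sox14 by 1.78, both apart, while Sox3 (1.67) and Sox21 (-2.23) overlapped. Sox1 was at -2.50 points without control replicate 1, and Sox14 at 0.89 without control replicate 2. The SoxF genes of endoderm and endothelium, Sox7, Sox17 and Sox18, were at -5.39, -1.96 and -6.45 points (Sox18 at -2.19 without control replicate 1), and the SoxE genes of neural crest and cartilage, Sox8, Sox9 and Sox10, at -3.15, -5.60 and -5.28 points. The testis gene Sox30 was at 58.97% and 55.8% in iKO and 62.5% and 66.3% in control (-7.00 points, adjusted p = 0.0590). None of these passed the test. At 5 of the Sox spans the groups overlapped and the sign turned with a library left out: Sox10 was at 0.28 points without control replicate 1, Sox21 at 1.79 without the same library, Sox17 at 1.06 and Sox8 at 2.70 without control replicate 2, and Sox3 at -4.04 without iKO replicate 1. Over all 45 spans the sign turned in this way at 12.

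The 10 T-box genes had a mean span level of 48.8% and 46.0% in iKO and 50.5% and 52.1% in control (-3.91 points, pooled SD 1.64, exact permutation p = 0.33). Without iKO replicate 2 the difference was -2.48 points, and over the other left-out libraries it lay between -5.33 and -3.11. All 10 spans were apart, 8 lower and 2 higher, against 85.4% and 0.453% of all spans. Tbx19 (Tpit), which drives pro-opiomelanocortin in the pituitary, was the most methylated, at 75.0% and 69.3% in iKO and 78.6% and 81.4% in control (-7.83 points, adjusted p = 0.0330). Without iKO replicate 2 the Tbx19 difference was -4.95 points (adjusted p = 0.331), and the adjusted p was also missed without control replicate 2 (0.0951), with the replicate block (0.0787) and with at least 3 reads per CpG (0.0757). Tbx5, a factor of heart and forelimb, fell by less but evenly, from 60.3% and 60.2% to 56.7% and 55.02% (-4.41 points, adjusted p = 0.0368), and missed the adjusted p with any library left out (0.0556 to 0.303). Tbx6, a factor of paraxial mesoderm, was at 38.2%, 33.8%, 43.2% and 48.3% (-9.73 points, adjusted p = 0.0740). With at least 3 reads per CpG the Tbx6 difference was -5.01 points, over the alternatives its adjusted p ranged from 0.0275 to 0.544, and without control replicate 1 it was called. Its span also holds parts of Ypel3 and Ppp4c. The 2 higher spans were Tbx1, the pharyngeal arch factor, at 25.7% and 26.2% in iKO and 22.3% and 21.5% in control (4.08 points, adjusted p = 0.216), and Tbx2, a repressor in heart and limb, at 19.6%, 18.8%, 15.9% and 18.1% (2.24 points, adjusted p = 0.356). Neither passed the test, and both start from weakly methylated spans. The Tbx1 difference was 0.42 points with at least 3 reads per CpG, and that of Tbx2 was 0.011 points with flanks of 10 kb and 1.14 without control replicate 1. Tbx4, Tbx15, Tbx18 and Tbx20 were lower by 1.17 to 3.93 points and did not pass the test. Without iKO replicate 2 Tbx4 was at -1.45 and Tbx18 at -2.53 points. Without control replicate 2 Tbx15 was at -0.44 and Tbx20 at -1.13.

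The 6 Gata genes had a mean span level of 43.3% and 42.4% in iKO and 46.8% and 48.4% in control (-4.78 points, pooled SD 0.911, exact permutation p = 0.33), and 5 of the 6 were lower apart, a share near the 85.4% of all spans. Gata1, the erythroid factor, was at 68.5% and 62.1% in iKO and 76.9% and 75.9% in control (-11.1 points, quasi-binomial adjusted p = 0.0767). That missed the threshold here and passed it with edgeR (adjusted p = 0.0173), with limma on logit levels (0.0293), after thinning to the shallowest library (0.0497) and with flanks of 10 kb (0.0260), in a range from 0.0173 to 0.473 over 14 alternatives. Gata6, which with Gata4 directs primitive endoderm and heart, was at 35.3%, 34.7%, 41.5% and 39.7% (-5.58 points, adjusted p = 0.0510), Gata4 at 51.7%, 48.7%, 55.1% and 53.6% (-4.09 points), and Gata3, the T-helper and trophoblast factor, at 26.3%, 27.3%, 29.6% and 32.6% (-4.31 points). Without iKO replicate 2 Gata4 was at -2.60 points, and without control replicate 2 Gata3 was at -2.77. Gata2 of blood stem cells differed by -2.19 points. For Gata5 the groups overlapped (-1.48 points, controls 53.9% and 63.6%), and its sign turned when iKO replicate 1 or control replicate 2 was left out (0.013 and 3.39 points).

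The 11 proneural bHLH genes, which start neuronal or oligodendrocyte programmes, had the lowest spans and the smallest mean loss. Their mean was 31.1% and 30.9% in iKO and 32.9% and 33.9% in control (-2.37 points, pooled SD 0.552, exact permutation p = 0.33), with 4 spans lower apart (85.4% of all spans were), 7 overlapping and none passing the adjusted test (45.1% of all spans did). Neurog1 differed most, at 30.8% and 33.6% in iKO and 39.4% and 39.4% in control (-7.19 points, adjusted p = 0.164). Neurod6, the most methylated of the family, was at 67.6%, 65.7%, 68.4% and 77.9% (-6.49 points, but -1.75 without control replicate 2 and -11.2 without control replicate 1), and Neurod4 at 56.1%, 56.6%, 59.8% and 63.1% (-5.07 points). Olig2, the oligodendrocyte and motor neuron factor, had the lowest span of all 45 in the controls and was at 9.59%, 11.7%, 11.3% and 9.35%, and Neurog2 was at 13.8%, 14.5%, 14.4% and 12.6%. Both overlapped. Differences between families were not tested.

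At the promoters, taken from 1000 bp before to 500 bp after the start, many members were weakly methylated. The start was the outermost RefSeq start where one was listed and otherwise the gene end with more CpGs, which need not be the start of transcription. The listed start lies well inside the annotated gene at 6 members: 835 kb at Sox5, 10.4 kb at Tbx4, 9.35 kb at Gata3, 8.75 kb at Gata1, 2.03 kb at Sox6 and 1.24 kb at Sox30. Over all 4 libraries 23 promoters averaged under 10%, 15 from 10% to 40% and 7 at 40% or more. In these classes the members differed by -0.34 (pooled SD 0.0995), -0.88 (1.65) and -5.75 points (7.12). Other genes of the same classes differed by -0.91, -4.19 and -8.77 points, and members were not tested against them by class. The mean was 19.1% and 16.9% in iKO and 18.5% and 20.3% in control (-1.36 points, pooled SD 1.43, exact permutation p = 0.667), and the groups overlapped. The difference was -2.46 points without iKO replicate 1, -0.26 without iKO replicate 2, -2.26 without control replicate 1 and -0.46 without control replicate 2. Among the other 19828 genes tested it was 26.7% and 25.6% against 29.6% and 31.1% (-4.19 points, pooled SD 0.959). The Sox promoters averaged -3.36 points, the Gata promoters -5.75 and both were apart, the T-box promoters averaged 2.18 points and were apart upward (median 0.18 points, 5 of 10 negative and 6 overlapping), and the bHLH promoters averaged 1.09 points and overlapped. The T-box, Sox and bHLH means moved with single libraries. The T-box value was 0.22 points without control replicate 1 and 4.14 without control replicate 2. The Sox value was -1.55 without iKO replicate 2 and -5.17 without iKO replicate 1, and the bHLH value ranged from 0.25 to 1.93. The Gata value stayed between -7.20 and -4.31 points, but Gata1 alone differed by -37.3 and the median of the 6 was -0.39. Both iKO libraries were lower at 12 member promoters and higher at 6, against 34.1% lower and 6.58% higher among all 19873 promoters. No member promoter was called, and 0.0201% of all promoters were. An unadjusted p under 0.05 was reached at 10.4% of all promoters and at 2 members, Gata1 and Sox9. No promoter was called by edgeR or by limma on logit levels, which in test data recovered only 1 and 0 of 200 changed promoters.

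**Figure D3:**
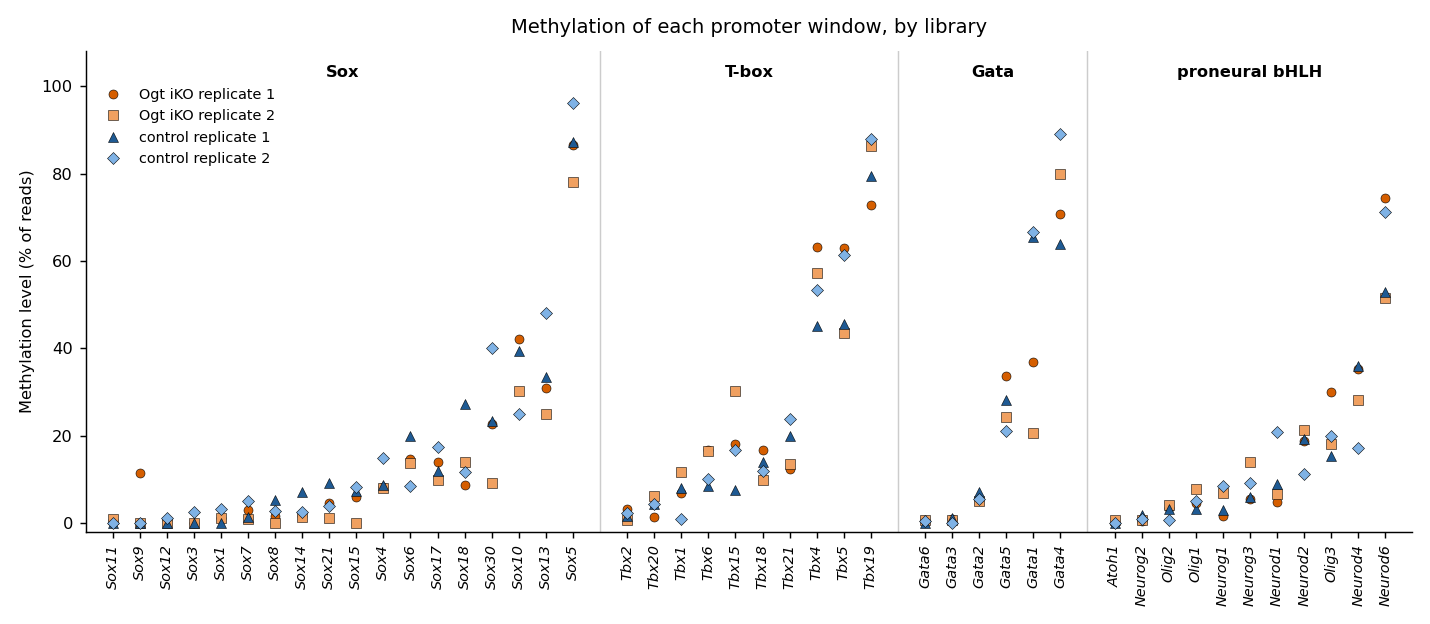
Methylation level of each promoter window (1000 bp before to 500 bp after the start, percent of reads) in each library, by family and in order of the control mean. Markers are as in the plot of spans, 1 point per library. The 23 promoters that average under 10% crowd at the bottom, and Gata1 is the promoter where the iKO points, at 36.8% and 20.7%, lie farthest under the controls, at 65.5% and 66.7%.

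The Gata1 promoter was at 36.8% and 20.7% in iKO and 65.5% and 66.7% in control, a difference of -37.3 points that rests on 10 CpGs and at least 24 reads in a library (pooled SD 8.10, quasi-binomial adjusted p = 0.274). The start used is the internal one, and the median difference over the 6 Gata promoters was -0.39 points. Tbx6 was the clearest case in the other direction. Its promoter was at 16.7% and 16.5% in iKO and 8.41% and 10.1% in control (7.36 points, pooled SD 0.848, adjusted p = 0.521, 42 CpGs), while its body, from 2 kb inside the start, was at 60.7% and 50.0% in iKO and 69.3% and 64.4% in control (-11.5 points). In the 2 bins at the Tbx6 start the levels were 7.25% and 11.01% against 1.49% and 0%, and 28.7% and 20.3% against 12.3% and 15.8%. Neither bin passed the test. Tbx15 was also higher, at 18.2% and 30.2% against 7.58% and 16.7%, and Tbx4 at 63.2% and 57.1% against 45% and 53.3%, the latter on 7 CpGs around a start inside the annotated gene. Sox30 was lower at 22.6% and 9.26% against 23.5% and 40%, and Neurod1, a factor of neurons and pancreatic endocrine cells, at 4.76% and 6.74% against 8.99% and 20.8%. Tbx21 was lower at 12.4% and 13.6% against 19.9% and 23.9%. None of these passed the adjusted test.

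The promoters with the highest and lowest control levels in each family show the range. Sox5, at its internal start, stood at 86.6%, 78.0%, 87.3% and 96.2%, and Sox11 and Sox9 at 0% in both controls. With 3 of the lowest read number as the limit, 0% allows up to 2.54% at Sox11 and 5.56% at Sox9. The value of 11.5% at Sox9 in iKO replicate 1, against 0% in iKO replicate 2, comes from a single library. Tbx19 stood at 72.7%, 86.3%, 79.5% and 87.9%, and Tbx2 at 3.23%, 0.60%, 1.68% and 2.31%. Gata4 stood at 70.7%, 80.0%, 63.8% and 89.1% and Gata6 at 0.73%, 0.62%, 0% and 0.53%. The Gata4 window is the CpG-denser gene end, and whether transcription starts there was not checked. Neurod6 stood at 74.5%, 51.6%, 52.9% and 71.1%, and Atoh1, a factor of hair cells and cerebellar granule neurons, at 0%, 0.67%, 0% and 0%. At all of these except Sox5, Sox11 and Gata6 the groups overlapped, and differences at Sox11 and Gata6 were under 1 point.

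Gene bodies were more methylated than promoters and, in the mean over the members, differed more in points. By family, bodies and promoters differed by -3.52 and -3.36 points in the Sox genes and by -5.26 and 2.18 in the T-box genes. In the proneural bHLH genes they differed by -1.79 and 1.09, and in the Gata genes the order was the other way (-4.35 and -5.75). Relative to the control level the losses were 7.54% for member bodies and 7.02% for member promoters, and in the other genes 12.1% and 13.8%. The body could be measured in 36 members and averaged 47.9% and 46.6% in iKO and 49.9% and 52.3% in control (-3.86 points, pooled SD 1.35, exact permutation p = 0.33), against -8.72 points (pooled SD 2.04) over 18343 other genes. Bodies were lower apart in 18 members and higher in 4, where 84.1% of all bodies were lower and 0.68% higher. The excess of body over promoter, in the same 36 genes, was 25.6 and 27.2 points in iKO and 28.8 and 28.9 in control (-2.39 points, pooled SD 0.810, exact permutation p = 0.33), and the difference was -1.58 points without iKO replicate 1. Bodies were not tested singly; the largest negative differences by family were those of Sox10 (62.7% and 69.6% in iKO against 75.5% and 77.4%, -10.3 points), Tbx6 (above), Gata6 (58.9% and 49.3% against 62.7% and 65.0%, -9.76 points) and Neurod4 (71.4% and 64.1% against 76.1% and 80.2%, -10.3 points). Bodies that were higher in both iKO libraries were those of Sox11 (30.1% and 35.8% against 22.1% and 24.2%), Neurod1 (29.8% and 33.1% against 18.0% and 27.7%), Tbx2 (23.8% and 23.2% against 21.1% and 20.4%) and Sox9 (18.4% and 19.4% against 17.8% and 17.6%). The highest value among them was the 35.8% of Sox11.

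Across the 10 kb around the start, member levels dipped to a minimum just inside the gene and rose to both sides. Each 1 kb window averages the members with enough CpGs and reads there, from 37 to 45 genes, so the windows do not hold the same genes. In the 1 kb before the start they averaged 22.2% and 20.1% in iKO and 21.1% and 22.8% in control, and the groups overlapped. In the 1 kb after it they averaged 15.5% and 14.2% against 16.5% and 17.1%. The groups were apart in 8 of the 10 windows and overlapped in the 1 kb before the start and in the outermost upstream window. From 5 to 4 kb before the start the means were 46.7% and 45.8% against 46.0% and 50.7% (-2.08 points, pooled SD 2.43, exact permutation p = 0.667). The largest difference lay from 2 to 1 kb before the start, where they were 39.1% and 35.7% against 44.2% and 46.6% (-7.97 points, pooled SD 2.06, 37 genes). From 4 to 5 kb inside they were 46.3% and 42.3% against 48.9% and 51.6% (-5.87 points, pooled SD 2.42). The other genes stood at 23.6% and 22.6% against 26.0% and 27.4% in the 1 kb after the start. From 2 to 1 kb before it they differed by -8.84 points (pooled SD 2.08), more than the members did. The member difference from 4 to 3 kb before the start was nearly as large, at -7.53 points (pooled SD 3.22).

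**Figure D4:**
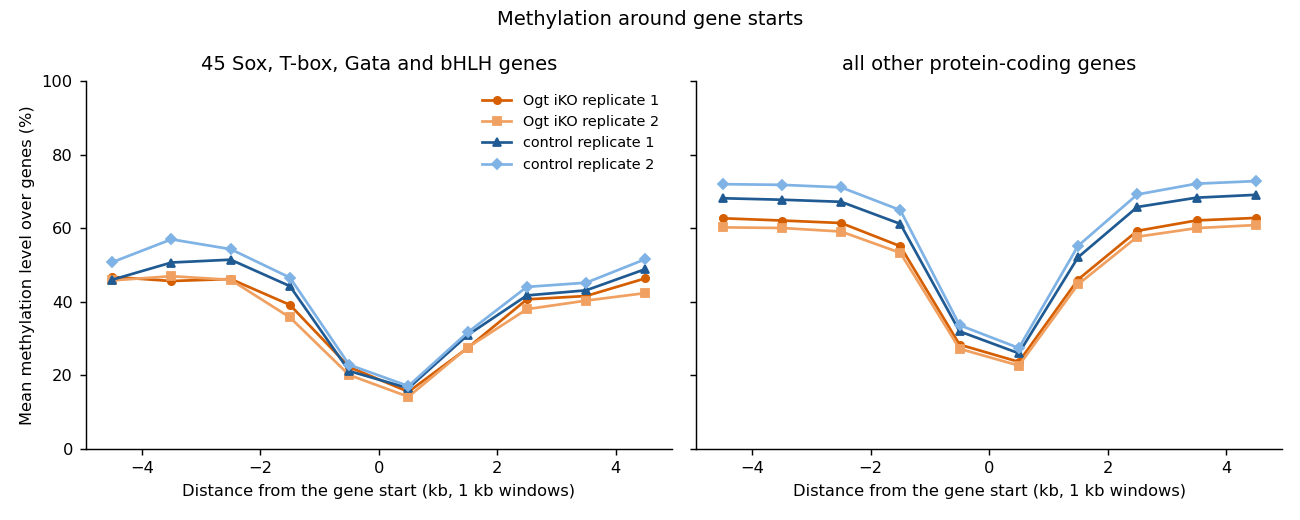
Mean methylation level (percent) in 1 kb windows from 5 kb before to 5 kb after the gene start, with 1 line per library. The members are at the left (37 to 45 genes a window, those with enough CpGs and reads) and all other protein-coding genes at the right. In the 2 windows beside the start the 4 member lines lie between 14.2% and 22.8%. The member groups overlap there before the start and again at the upstream edge and are apart in the other 8 windows, while the lines of the other genes are apart in every window.

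By CpG number of the 1 kb bin, the difference in points was larger in bins with fewer than 30 CpGs than in denser ones. In member bins with 1 to 9 listed CpGs the mean level was 72.4% and 70.3% in iKO and 75.7% and 80.2% in control (-6.58 points, pooled SD 2.48, 1357 bins). In bins with 10 to 29 CpGs it was 66.0% and 63.5% against 70.8% and 73.4% (-7.37 points, pooled SD 1.82, 1160 bins). In bins with 30 to 59 CpGs it was 13.9% in both iKO libraries against 15.7% and 15.0% (-1.47 points, pooled SD 0.336, 147 bins), and with 60 or more it was 2.79% and 2.37% against 3.36% and 2.86% (-0.53 points, pooled SD 0.321, 64 bins). Each was apart, with the smallest possible exact permutation p of 0.33. Relative to the control level the losses were 8.44%, 10.2%, 9.57% and 17.1% from the sparsest to the densest class, so the ranking in points did not hold on that scale. Without control replicate 2 the sparsest class differed by -4.33 points, and the densest by -0.28 without control replicate 1 and -0.32 without iKO replicate 2. Bins of the other genes differed by -7.93, -8.88, -4.28 and -0.62 points in the same order. In bins with 30 to 59 CpGs the other genes had more methylation, 25.6% and 26.7% in control, and the members' difference was smaller by 2.81 points (pooled SD 1.02, exact permutation p = 0.33). At the promoter end, 36 member bins of that class averaged 10.1% and 8.85% in iKO and 9.59% and 8.88% in control, and the groups overlapped. Sox5 and Sox6 hold 55.8% of the 2728 member bins, and without the 3 members over 100 kb the 4 differences were -6.45, -6.53, -1.30 and -0.53 points.

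**Figure D5:**
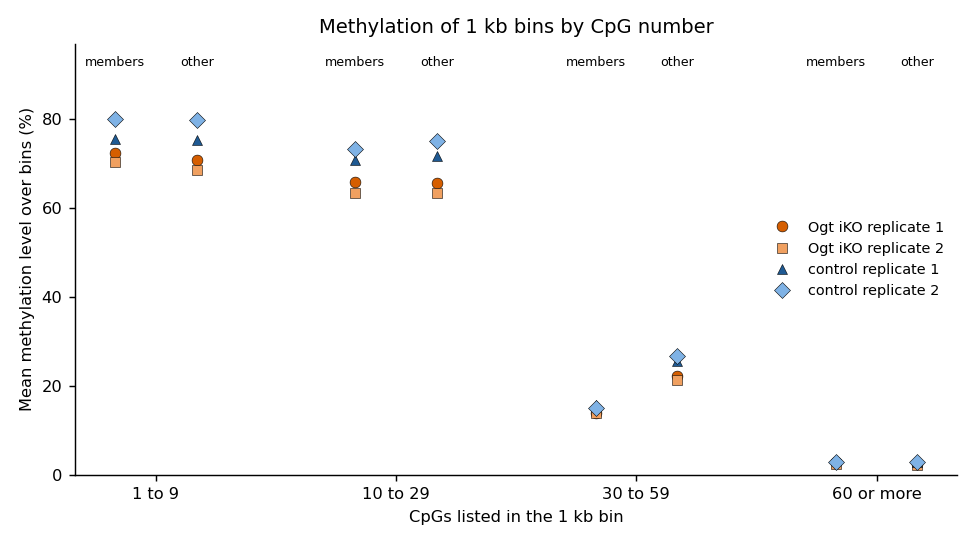
Mean methylation level (percent) of 1 kb bins by the number of CpGs listed in the bin, for bins of the 45 genes (members) and of all other genes (other), with 1 point per library. Points of the iKO libraries lie under the controls in the sparse bins, at 72.4% and 70.3% against 75.7% and 80.2% for members with 1 to 9 CpGs, and nearly coincide in bins with 60 or more.

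With 1 to 9 and with 10 to 29 CpGs the differences were -7.22 (pooled SD 1.89) and -6.36 points (2.00) in the Gata genes. They were -5.12 (2.42) and -3.53 (0.978) in the proneural bHLH genes and -7.00 (2.60) and -8.34 (2.00) in the Sox genes. In the T-box genes they were -4.92 (2.53) and -5.39 (1.34). In each family the gap between these classes was smaller than the pooled SD of the sparser class, and the order of the classes was not tested. In bins with 10 to 29 CpGs the Sox genes differed by -8.34 points (777 bins), the Gata genes by -6.36 (122 bins), the T-box genes by -5.39 (201 bins) and the proneural bHLH genes by -3.53 (60 bins), each with groups apart. In bins with 60 or more CpGs the T-box genes were higher, at 5.15% and 5.29% in iKO and 4.69% and 4.37% in control over 12 bins, while Gata bins were lower, at 4.26% and 2.94% against 4.43% and 5.64%, and proneural bHLH bins too, at 0.97% and 1.14% against 1.62% and 1.36%. The Sox bins of that class overlapped (-0.70 points).

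Tested singly, 12 of 2100 member bins were called, all lower, where 0.448% of all 1396320 bins were called lower and 0.0015% higher. In this test every bin was given the same dispersion, so the spread between the replicates of a bin had no weight of its own. With the dispersion prior first planned, described under the processing, 3 of all bins and 0 member bins were called. No member bin was called with any library left out, with edgeR or with limma on logit levels. Of all bins edgeR called 22 and limma 0. In test data edgeR recovered 1, limma 0 and the main test 5 of 200 changed bins, and left-out libraries were not simulated. Whether low power accounts for the missing member calls was not tested. At an unadjusted p under 0.05, 211 member bins were lower and 13 higher, 10.7% of those tested against 13% of all bins. Sox15 held 3 of the 12, among them the bin that starts at chr11:69659001 (-38.2 points). The largest decrease was in Sox5, at chr6:144721001-144722000 inside the gene, from 70.4% and 77.8% in control to 35.9% and 29.7% in iKO (-41.3 points, adjusted p = 0.000835). In Gata1 the called bin chrX:7967001-7968000 contains the start used and went from 73.2% and 71.4% to 37.0% and 29.8% (-38.9 points). Gata4 had one at chr14:63236001-63237000 (82.5% and 76.9% to 43.9% and 45.5%), Sox6 at chr7:115568001-115569000 (76.1% and 69.7% to 41.7% and 33.3%), Gata3 in the body, chr2:9858001-9859000 (41.4% and 66.1% to 21.7% and 17.4%), and Sox30 just before the start used, chr11:45979001-45980000 (44.4% and 58.6% to 24.6% and 13.9%). Of the 12 bins, 11 hold 11 to 26 listed CpGs, and the Sox10 bin holds 33.

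Low-methylated bins, under 20%, were slightly more frequent in iKO, at 10.1% and 10.2% of member bins against 9.12% and 9.43% in control (0.90 percentage points more, pooled SD 0.160, exact permutation p = 0.33). Of 2270 bins with enough reads 169 were low in every library, 11 only in both iKO libraries and 4 only in both controls, or 0.48% and 0.18% of the member bins. In bins of the other genes the excess in iKO was 1.02 percentage points (pooled SD 0.158), and 0.41% of 875309 bins were low only in both iKO libraries and 0.040% only in both controls. In points, the excess over all member bins was near that elsewhere, but without members over 100 kb it was 1.65. Of those 11, 3 lie around Sox15 and 2 beyond the 3′ end of Gata3, and the 4 lie in Sox6, Tbx6, Neurog3 and Olig2. Low stretches around the start were measured across bins with too few reads, which count in the length. The stretch averaged 2.49 and 2.60 kb in iKO and 2.47 and 2.51 kb in control, and overlapped. It overlapped at 39 members, was longer in both iKO libraries at Sox7, Sox12, Sox15 and Tbx20 and shorter at Tbx6 and Olig2, where 6.01% of all 21444 genes were longer and 0.564% shorter. At Olig2 it measured 4 and 3 kb in iKO and 8 and 9 kb in control, and the bin before the start stood at 20% and 20.4% in iKO and 19.1% and 19.6% in control, on either side of the limit. In the 3 members with a stretch of 5 kb or more in every library, Gata6, Sox9 and Sox11, it measured 8 and 6 kb in iKO and 8 and 6 kb in control, 5 and 6 against 5 and 5 kb, and 6 kb in all 4.

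Other genes of the families, on a list of 24 that includes Sox2, Tbx3, Eomes and Tal1, differed by -5.22 points over the span (pooled SD 1.74). Of these spans 13 were lower apart (54.2%) and 0 higher, where 85.4% of all spans were lower and 0.453% higher. Called were 2, both lower, where 14.4% of all spans were called: Ascl3 (63.4% and 63.0% against 75.5% and 76.5%) and Nhlh1 (47.0% and 51.0% against 58.4% and 63.0%). Sox2, the pluripotency factor, was nearly free of methylation at 4.87%, 4.21%, 5.13% and 5.15%, with a promoter at 0% in all 4 libraries. By promoter the largest differences among them were at Tbx10 (58.9% and 57.1% against 71.2% and 88.0%), Ascl3 (63.0% and 69.6% against 81.8% and 86.0%), Mesp1 (29.6% and 26.9% against 28.8% and 7.34%), Msgn1 (54.7% and 61.9% against 73.9% and 62.0%) and Mesp2 (16.1% and 6.92% against 11.8% and 26.7%). None of these promoters was called. Of 2 other developmental groups, 44 forkhead genes differed by -4.55 points (pooled SD 0.959) and 43 homeobox genes by -3.19 points (pooled SD 1.36). Of their spans 24 and 21 were lower apart, 2 and 4 higher, and 4 and 2 called, all lower. The share lower apart was 54.5% and 48.8%, against 85.4% of all spans, and 14.4% of all spans were called. The share higher was 4.55% and 9.30%, against 8.89% of the members and 0.453% of all spans.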

How the data were processed

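Whole-genome bisulfite sequencing was read in 2 Ogt iKO and 2 control libraries. The submitters' processing notes name BSMAP, Picard and the mm10 build, with versions not given in the sources used here. Per the file headers, the deposited tables give per CpG a count of methylated reads and of total reads, and a C/T-corrected expected count, used as an alternative. Bisulfite conversion was not checked here.

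Features pooled the reads of CpGs read in every library: spans (gene with 5 kb on either side), promoters, bodies and 1 kb bins, with RefSeq GRCm38.p6 coordinates. Set means weight genes or bins equally. Each feature was tested by quasi-binomial logistic regression, its dispersion moderated with limma 3.58.1 across all features, with Benjamini-Hochberg adjustment. The dispersion prior used features with at least 5 expected methylated and unmethylated reads in every library, a change made after the planned prior had recovered 0 of 200 changed features in test data for promoters and for bins. In test data with 200 changed features of each kind, the test recovered 175 spans, 22 promoters and 5 bins. All changed features were given the same difference, larger than that of any member span. They were drawn from features with intermediate or high levels and enough reads, so weakly methylated features were not covered. False calls numbered 2 with 21414 spans in all, 0 with 19873 promoters and 0 with 100000 bins. Most of the changed promoters and bins were thus missed. Recovery by size of the difference was not tested, so these counts do not give the power for the span differences above. edgeR 4.0.16 and limma on logit levels were alternatives, with left-out libraries, other filters, windows and limits.

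Named were the called members, per family those with the highest and lowest control promoter level, the largest and smallest span difference and the largest body difference, the 10 largest decreases among called bins, and up to 5 other family genes by promoter difference. From the list of other family genes 1 gene is not reported here and was left out of its counts and means. Further members and bins were named after their values had been seen, to account for each family. The members, lists and tests were chosen with earlier results of these data known. Reads are not independent molecules, so limits for 0% cover counting error only.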

Additional observations from a re-analysis of the deposited data

How the results depend on the processing

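All 14 level differences of the members, their families, promoters, bodies and bin classes kept their direction under the 113 alternatives that leave out no library, 95 of them within 1 pooled SD. With 2 libraries a group, leaving out 1 cannot move a difference by more than its pooled SD, so these values show only size. With the reads of all members pooled, the span difference was -5.44 points over the members and -6.68 over the Sox genes, and with an unweighted mean over CpGs -5.42 over the Sox genes. With at least 3 reads per CpG it was -7.24 for the Sox spans, -2.07 for the Gata spans, -5.23 for bodies, -3.87 for body against promoter, -2.27 for bins with 30 to 59 CpGs and -1.01 for bins with 60 or more. With 2 kb bins the last 2 were -0.97 and -0.18 points. The excess of low-methylated bins was 1.54 points with at least 3 reads, 0.63 with all listed CpGs, 0.64 unweighted, 0.15 in 2 kb bins, 0.31 and 1.34 with limits of 10% and 30%, and 1.65 without members over 100 kb, an alternative added after seeing the data. The cause of these shifts was not tested.

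Of 21 named spans 17 kept their direction. Atoh1 turned to 2.80 and Gata5 to 7.13 points with at least 3 reads per CpG, and Neurog2 to -0.49 with flanks of 10 kb. Over left-out libraries Gata5 ranged from -6.34 to 3.39, Neurog2 from -0.28 to 1.54 and Sox10 from -10.8 to 0.28 points.

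Called spans numbered 9631 (6 members) with a size limit of 5 points and 13 (0 members) with 20. Leaving out a library gave 956 to 6921 spans (1 to 4 members), 956 without iKO replicate 2, 1663 without control replicate 2 and 6921 without control replicate 1. Called promoters numbered 7 with at least 3 reads, 28 after thinning to the shallowest library and 35 in a window of 500 bp on either side. They numbered 0 with all listed CpGs, edgeR, limma on logit levels or the dispersion prior from all features. That prior was the planned one, and the main test departed from it after the test data had been seen. Called bins numbered 1237 (2 members) with at least 3 reads, 19382 (21 members) in 2 kb bins, 22 (0 members) with edgeR, 0 (0 members) with limma, 3 (0 members) with the prior from all features, and 1 to 33 (0 members) with a library left out.

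Replicate numbers did not pair the samples: the correlation of replicate differences was -0.0532 over spans and -0.037 over promoters. With the replicate number as a block 1977 spans, 70 promoters and 3122 bins (7 of members) were called, and Sox15 and Tbx21 were again the 2 member spans called.

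At 3.35 to 4.04 reads per CpG, the test recovered few of the changed promoters and bins in test data. Missing calls at promoters and bins do not show equal methylation.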
